A study of Canis lupus familiaris with 6 samples.

Results

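The collagen chain genes are the genes that encode the alpha chains of the collagens. They were taken as every gene whose annotated symbol is COL, a number, A and a number, on a probe set annotated to a single gene. There were 36 such genes, read by 97 probe sets, among 15153 genes on the array. They were measured in drilled holes of 4.5 mm diameter and 8 mm length in the mandible of beagle dogs aged 9 years, made 3 months after the premolars were extracted. The holes were implanted with beta-TCP (beta-tricalcium phosphate, a bone filling ceramic that the body resorbs) or left without it (control), and cylinders of tissue were collected at 4, 7 and 14 days. There are 6 groups, beta-TCP at day 4, 7 and 14 and control at day 4, 7 and 14, with 1 Affymetrix canine array each. How many animals were used, and which specimens shared an animal, is not given in the sources used here. With 1 array per group, a difference on a single day has no replicate check and no p-value.

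Collagens are secreted proteins built from 3 alpha chains wound into a triple helix. Fibrillar collagens, with type I as the main protein of bone matrix and type III prominent in healing tissue, form the load-bearing fibrils. Fibril-associated collagens with interrupted triple helices (FACIT) coat those fibrils, basement membrane (type IV) collagens form sheets under endothelium and epithelium, and network collagens form lattices in cartilage and cornea. The other collagens include beaded filaments (type VI), anchoring fibrils (type VII), membrane-spanning chains (types XIII, XVII, XXIII and XXV) and type XV, which lies at the edge of basement membranes. The 36 genes comprised 10 fibrillar, 8 FACIT, 6 basement membrane, 2 network and 10 other collagens.

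Values are given as multiples of the median of each array over its 42860 probe sets, and differences as log2(value + 1), beta-TCP minus control, on the probe set with the highest mean of each gene. A 2-fold difference means a difference of at least 1 on this log2(value + 1) scale. For values near or below the median, the ratio of the signals themselves can pass 2-fold where this difference does not. A level cannot be compared between probe sets. Of the 36 genes, 29 passed the expression filter, which asked for a mean at or above the 40th percentile of all probe sets. The 7 others (COL2A1, COL19A1, COL4A3, COL10A1, COL8A2, COL17A1 and COL6A6) read 0.03 to 1.28 times the median on all arrays. The array of beta-TCP at day 14 stood apart, since its Spearman correlations with the remaining arrays were 0.72 to 0.78, whereas those 5 arrays correlated with each other at 0.83 to 0.91. The values deposited for day 14 were on another scale than those of days 4 and 7, so that the age of the wound and the scale of the file cannot be told apart between day 14 and an earlier day.

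**Figure D1:**
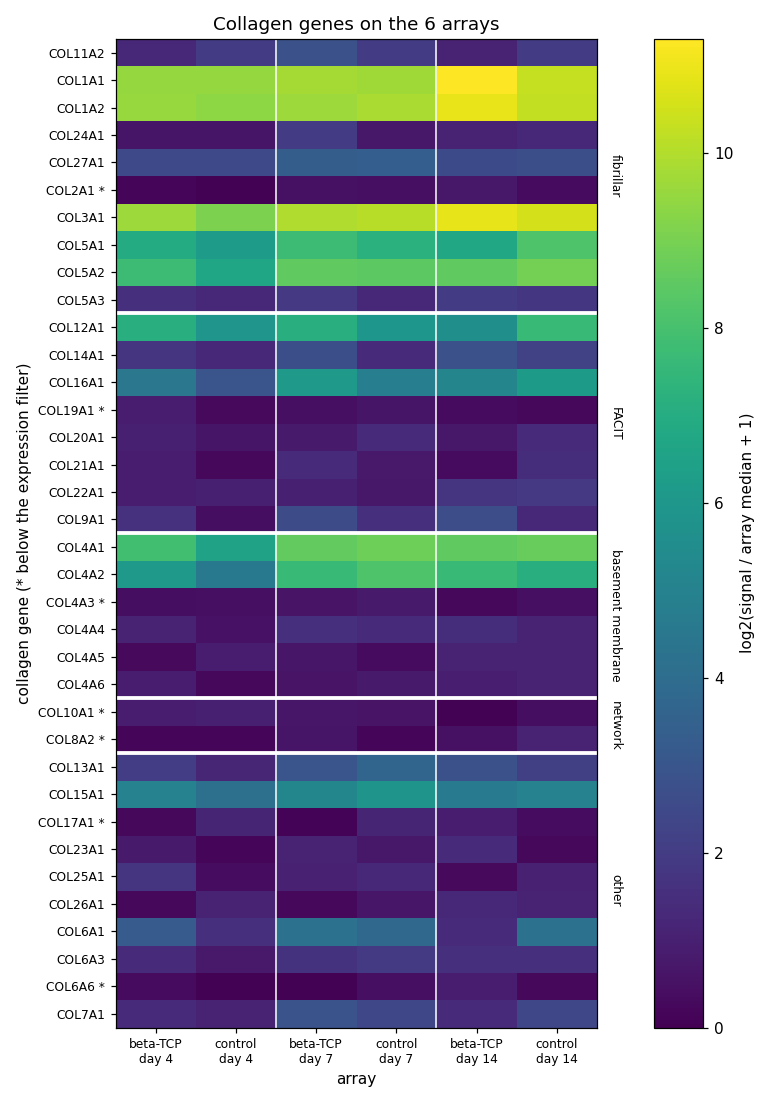
Levels of the 36 collagen genes (rows, by class) on the 6 arrays (columns), as log2 of the signal over the array median plus 1. An asterisk marks the 7 genes below the expression filter, and the 13 genes with a mean of at least 4 times the median stand out against the 16 kept genes below that level.

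At day 4, more collagen genes were higher with beta-TCP than lower. Of the 29 kept genes, 8 were at least 2-fold higher, against 4.51% of all 10550 genes kept, and 0 were at least 2-fold lower, against 3.09%. Their median difference was 0.65, with 22 genes above 0, while the median of all genes was 0.17 and 62.6% of them were above 0. At day 7, 5 of the 29 were at least 2-fold higher (2.96% of all genes) and 0 lower (3.43%), with a median of 0.22 against -0.08. At day 14, 2 were at least 2-fold higher (3.48% of all genes) and 6 lower (15.4%), with a median of -0.17 against -0.23, so the collagens lay near the background on that day. The direction of the day 14 median turned with the scaling, to 0.04 with quantile normalization and to 0.20 when the 90th percentile replaced the median as the divisor. Counted over all 36 genes without the filter, the splits were 8 higher and 0 lower at day 4, 5 and 1 at day 7, and 2 and 6 at day 14. In bulk tissue, fewer cells of a type and less RNA per cell cannot be told apart.

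**Figure D2:**
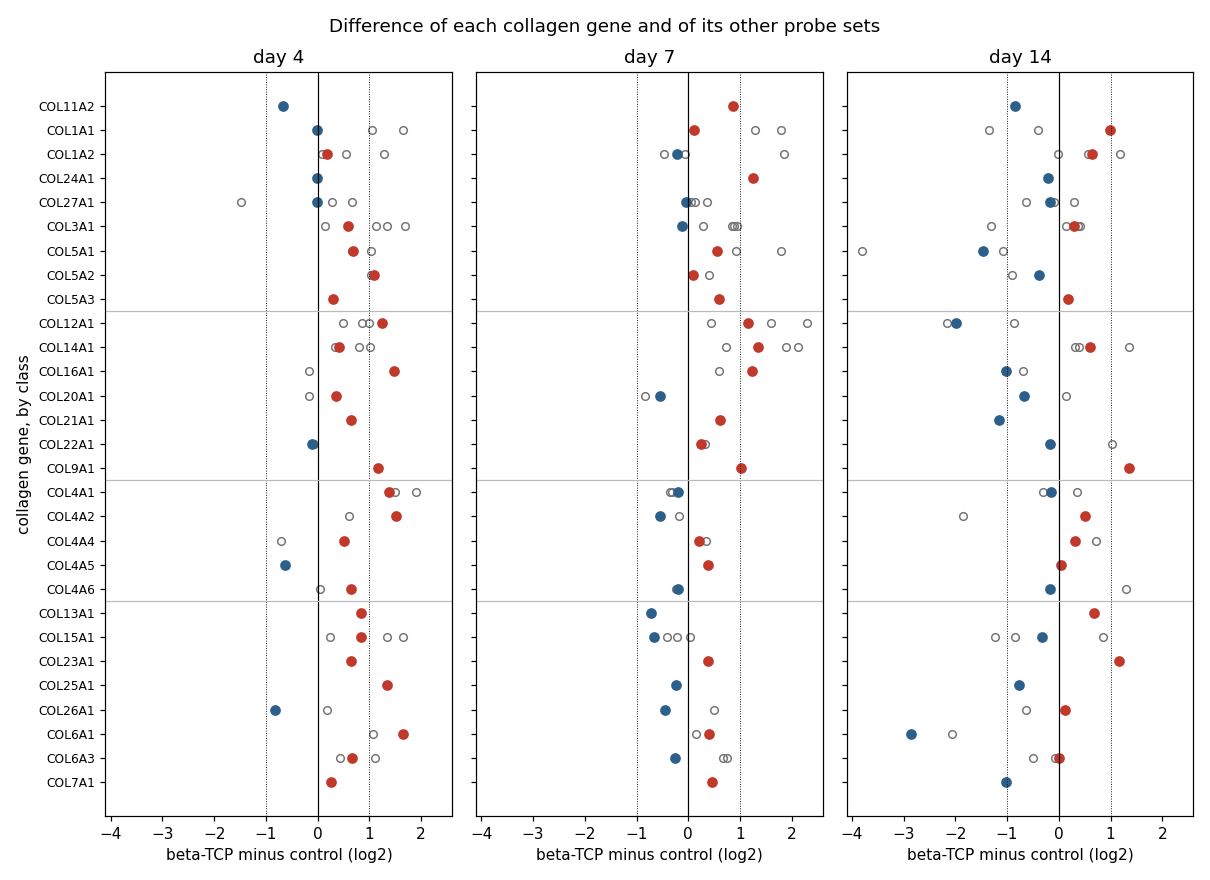
Beta-TCP minus control (log2, x axis) for the 29 kept collagen genes on each day. Filled points are the probe set that stands for the gene (red above 0, blue below), open points are its other probe sets above the filter, and dotted lines mark a 2-fold difference. At day 14, the points of COL12A1, COL5A1 and COL6A1 all lie below 0, while those of 12 genes lie on both sides.

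Among the fibrillar collagens, type I was read by probe sets that gave different answers. COL1A1, the gene of the alpha 1 chain of type I collagen, read 719.8 times the array median at day 4, 881 at day 7 and 2521 at day 14 with beta-TCP, against 732, 820.0 and 1270.1 in control. These values differed by -0.02, 0.10 and 0.99. Its lowest probe set read 130.4, 396 and 166 with beta-TCP, against 40.9, 114 and 426 in control. On that probe set beta-TCP was above control at days 4 and 7 and below it at day 14, by 1.65, 1.79 and -1.36. Its other probe set differed by 1.05, 1.29 and -0.40.

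COL1A2, the gene of the alpha 2 chain of type I collagen, showed the same division. Its leading probe set read 759.9, 797 and 1925 with beta-TCP at days 4, 7 and 14, against 669.9, 922 and 1230.2 in control. Beta-TCP was slightly above control at day 4, below it at day 7 and above it at day 14, by 0.18, -0.21 and 0.65, and the sign turned at day 4 with arrays scaled to the 90th percentile and at days 7 and 14 with quantile normalization. Its lowest probe set read 86.2, 152 and 72.7 with beta-TCP, against 34.9, 41.3 and 73.2 in control, or 1.28, 1.86 and -0.01. COL3A1, the gene of type III collagen, read 809.6, 989.7 and 1879 with beta-TCP on its leading probe set, against 542, 1071 and 1523 in control. These differed by 0.58, -0.11 and 0.30, with the last at -0.48 under quantile normalization.

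The 12 probe sets of these 3 genes separated by where they lay on the scale of the arrays. The leading probe set of COL3A1 held the highest value of the whole array on 4 of the 6 arrays (beta-TCP day 4, beta-TCP day 7, control day 7 and control day 14), and that of COL1A1 reached 67.6% to 90.2% of the highest value. The 6 probe sets that reached at least 50% of an array's highest value differed by -0.02 to 0.58 at day 4, by -0.46 to 0.28 at day 7 and by 0.30 to 1.19 at day 14. The 6 probe sets that stayed below 50% differed by 1.05 to 1.68, by 0.84 to 1.86 and by -1.36 to 0.40. At days 4 and 7 the ranges did not overlap, and all 6 lower-lying probe sets were above 0 on both days. The 50% cut was chosen after seeing the data, and the probe sets are repeat readings of 3 genes. In level the sets overlapped across arrays, at 39.1% to 100% and at 1.13% to 45.8% of an array's highest value. At day 14, COL1A1 had nearly the same deposited intensity on both arrays, 15629 with beta-TCP and 15241 in control. Its difference of 0.99 came with the division by array medians of 6.2 and 12, which enters every day 14 difference. The COL1A1 difference was 0.05 with quantile normalization and 1.42 when scaled to the 90th percentile. The leading probe sets of COL1A2 and COL3A1 had lower deposited intensities with beta-TCP, 11936 against 14762 and 11651 against 18282. Whether signal at the top of the scale still followed the amount of transcript was not tested. No other collagen gene had a probe set this high.

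**Figure D3:**
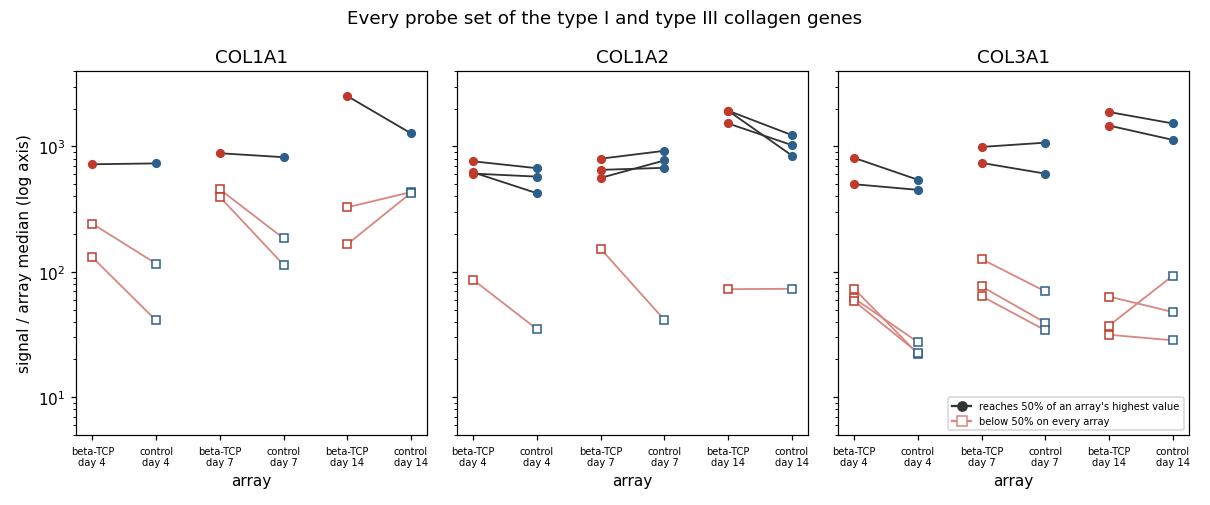
Signal over the array median (log axis) of every probe set of COL1A1, COL1A2 and COL3A1 on the 6 arrays, with lines joining beta-TCP to control of the same day. Filled circles are the 6 probe sets that reach 50% of an array's highest value and differ by -0.46 to 0.58 (log2) at days 4 and 7; open squares are the 6 others, all higher with beta-TCP on those days.

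Type V collagen, which starts and limits the growth of type I fibrils, was higher with beta-TCP at day 4. COL5A2, the gene of its alpha 2 chain, read 215, 369.5 and 376 times the median with beta-TCP at days 4, 7 and 14, against 101, 346 and 489 in control. Its difference was 1.08 at day 4 and 0.09 at day 7, and its other probe set gave 1.04 and 0.40. COL5A1, the gene of the alpha 1 chain, read 122, 215 and 106 with beta-TCP, against 75.9, 146 and 294 in control. Beta-TCP was above control on the first 2 days and below it at day 14, by 0.68, 0.56 and -1.47. All 3 probe sets of COL5A1 above the filter had this order, with 0.67 to 1.03 at day 4, 0.56 to 1.79 at day 7 and -3.80 to -1.09 at day 14. Its remaining probe set, below the filter, gave -0.65, -0.93 and -0.02. COL3A1 and COL5A2 are next to each other on chromosome 36 of the RefSeq gene table (assembly UU_Cfam_GSD_1.0).

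The remaining fibrillar genes were read at low levels. COL24A1, known from forming bone in mouse, read 0.55, 2.94 and 1.18 with beta-TCP at days 4, 7 and 14, against 0.57, 0.66 and 1.5 in control, so it was above control only at day 7 (1.25). COL11A2, a chain of the type XI collagen of cartilage, differed by -0.66, 0.87 and -0.85, and COL5A3 by 0.29, 0.60 and 0.18. COL27A1, a cartilage collagen in mouse, differed by -0.02, -0.04 and -0.17 on its leading probe set, which read 4.58, 9.02 and 4.85 with beta-TCP against 4.67, 9.31 and 5.58 in control. The others of its 4 probe sets above the filter lay at -1.49 to 0.66 at day 4. COL2A1, the main collagen of cartilage, was below the filter, with at most 0.66 with beta-TCP and at most 0.37 in control.

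By class, the median differences at days 4, 7 and 14 were 0.18, 0.10 and -0.17 for the 9 kept fibrillar genes, 0.65, -0.20 and 0.04 for the 5 basement membrane genes and 0.75, -0.24 and -0.16 for the 8 other collagens. When the probe sets near the top of the scale were left out, a setting chosen after seeing the data, the fibrillar medians were 0.68, 0.84 and -0.38, with 4 of the 9 genes at least 2-fold higher at day 4 in place of 1. The FACIT class had the highest median of the classes at day 7, 1.03 over 7 kept genes, after 0.65 at day 4, and the lowest at day 14, -0.68. The median of all genes was 0.17, -0.08 and -0.23 on these days. At least 2-fold higher were 3 of the 7 FACIT genes at day 4 (4.51% of all genes), 4 at day 7 (2.96%) and 1 at day 14 (3.48%). At day 14, 3 were at least 2-fold lower, against 15.4% of all genes. COL12A1, whose product lies on the surface of type I fibrils, read 138, 138 and 48.4 with beta-TCP, against 57.9, 61.1 and 195 in control. The difference was 1.24, 1.16 and -1.99. All 4 of its probe sets were above 0 at days 4 and 7 (0.49 to 1.24 and 0.44 to 2.30) and below 0 at day 14 (-2.15 to -0.86). COL16A1, another fibril-associated collagen, read 21.1, 65.8 and 34.2 with beta-TCP, against 6.96, 27.3 and 69.9 in control, which differed by 1.48, 1.24 and -1.01. Its second probe set, at 0.89 to 3.16 times the median, gave -0.16, 0.59 and -0.69. COL21A1 had the same order at a low level, with 0.65, 0.61 and -1.16. The leading probe sets of COL20A1 and COL22A1 stayed under 2-fold on the log2(value + 1) scale on every day. They differed by -0.54 to 0.34 on the first 2 days and by -0.68 and -0.17 at day 14. The second probe set of COL22A1 differed by 1.02 at day 14, and that of COL20A1 by 0.14.

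COL9A1, a chain of the type IX collagen that coats type II fibrils in cartilage, was the only collagen gene at least 2-fold higher on all 3 days. It read 2.04, 4.93 and 5.44 with beta-TCP, against 0.35, 1.91 and 1.5 in control, a difference of 1.17, 1.03 and 1.36 on its single probe set. COL14A1, which like COL12A1 binds type I fibrils, read 2.28, 5.51 and 5.94 with beta-TCP, against 1.47, 1.54 and 3.55 in control, or 0.41, 1.36 and 0.61. All 4 of its probe sets above the filter were higher on every day, by 0.33 to 1.0, 0.73 to 2.13 and 0.31 to 1.36. Beside these, 7 cartilage markers, of which 4 were kept, summed to 17.4, 40.9 and 27.7 times the median with beta-TCP and to 7.89, 12.8 and 30.9 in control. Of these markers SOX9, MATN1 and MATN3 were below the filter. ACAN made up 25.8 of the sum with beta-TCP at day 7 and 17.9 of the sum in control at day 14. At day 7, 3 of the 4 kept markers were higher with beta-TCP, and COMP was lower (-0.43). At day 14, COMP (1.59) and CNMD (0.12) were higher, and ACAN (-0.58) and HAPLN1 (-1.55) were lower. The part of cartilage cells in the values of COL9A1 was not tested. COL19A1, which adjoins COL9A1 on chromosome 12, was below the filter.

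**Figure D4:**
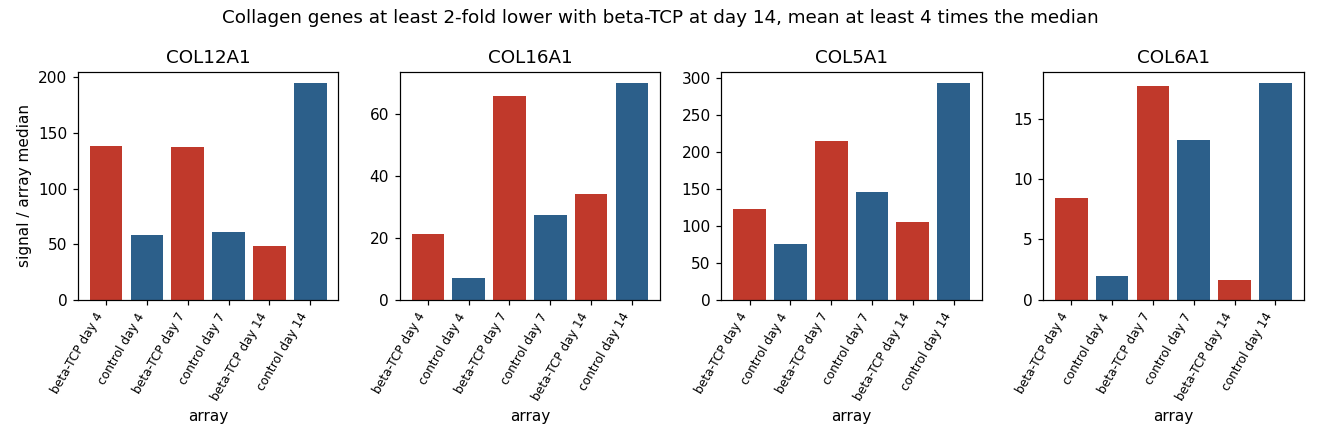
Signal over the array median (bars from 0) of COL12A1, COL16A1, COL5A1 and COL6A1, the collagen genes with a mean of at least 4 times the median that were at least 2-fold lower with beta-TCP at day 14 (red, beta-TCP; blue, control). All 4 are higher with beta-TCP at days 4 and 7, and each has its highest value among control arrays at day 14.

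In the basement membrane class, COL4A1 and COL4A2, the chains of the type IV collagen of nearly all basement membranes, were higher with beta-TCP at day 4 and slightly lower at day 7. They are direct neighbours on chromosome 22. COL4A1 read 235, 387 and 371 with beta-TCP at days 4, 7 and 14, against 89.6, 446 and 409.8 in control. Its 3 probe sets differed by 1.38 to 1.89 at day 4, by -0.36 to -0.21 at day 7 and by -0.31 to 0.36 at day 14. COL4A2 read 67.1, 201 and 197 with beta-TCP, against 22.7, 295 and 138 in control, a difference of 1.52, -0.55 and 0.51. Its second probe set gave 0.61, -0.18 and -1.86. The day 14 sign of COL4A1 turned to above 0 with quantile normalization (0.15) and when arrays were divided by their 90th percentile (0.29).

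COL13A1, a membrane-spanning collagen, and COL15A1, which lies at the edge of vessel and muscle basement membranes, had the same order on the first 2 days. COL13A1 read 3.16, 6.86 and 6.0 with beta-TCP, against 1.32, 12 and 3.39 in control, or 0.84, -0.73 and 0.67. COL15A1 read 31.5, 35.8 and 24.7 with beta-TCP, against 17.1, 57.2 and 31.3 in control, or 0.84, -0.66 and -0.33. All 4 probe sets of COL15A1 were above 0 at day 4 (0.24 to 1.65), while at day 14 they lay on both sides (-1.24 to 0.86).

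Summed, the endothelial markers had the same order as the leading probe sets of COL4A2 and COL13A1 on every day. At day 14, where this sum was above control, COL4A1 (-0.14), COL15A1 (-0.33) and the second probe set of COL4A2 (-1.86) were below it. The summed level of 5 markers, all kept, was 131, 231 and 309.5 times the median with beta-TCP at days 4, 7 and 14, and 61.7, 333 and 224 in control. PECAM1, an adhesion protein of endothelium, read 60.3, 79.5 and 117 with beta-TCP, against 33.4, 113 and 86.5 in control. Of the 5, CDH5 ran the other way at day 4 (-1.10) and TEK at day 7 (0.72). The part of endothelial cells in the type IV values was not tested.

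**Figure D5:**
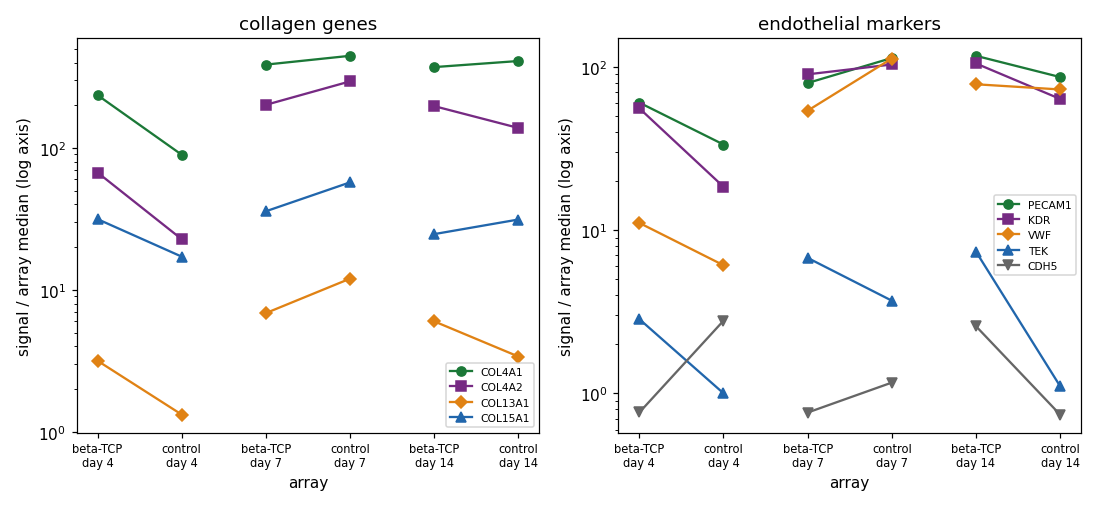
Signal over the array median (log axis) of COL4A1, COL4A2, COL13A1 and COL15A1 (left) and of 5 endothelial markers (right), with lines joining beta-TCP to control of the same day. All 4 collagen genes are higher with beta-TCP at day 4 and lower at day 7, as are PECAM1, KDR and VWF.

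The type IV chains of more restricted basement membranes were near or below the array median. COL4A4 read 1.10, 2.0 and 1.76 with beta-TCP, against 0.49, 1.58 and 1.21 in control, COL4A5 at most 1.15 and COL4A6 at most 1.21 on any array, and COL4A3 was below the filter. The pairs COL4A3 and COL4A4, on chromosome 25, and COL4A5 and COL4A6, on chromosome X, are neighbours in the same gene table. On its leading probe set no gene of either pair was at least 2-fold different on the log2(value + 1) scale on any day. As ratios of signal these low values differed more. At day 4, COL4A5 read 0.22 with beta-TCP against 0.89 in control, and COL4A6 read 0.84 against 0.18. The second probe set of COL4A6 differed by 1.30 at day 14, against -0.18 on the leading one.

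COL6A1, a chain of the beaded filaments around cells and fibrils, was far from control at days 4 and 14. It read 8.43, 17.7 and 1.63 with beta-TCP at days 4, 7 and 14, against 2.0, 13.2 and 18.0 in control. Beta-TCP lay above control at days 4 and 7 and far below it at day 14, by 1.65, 0.39 and -2.85, and the second probe set gave 1.08, 0.15 and -2.06. COL6A3, another type VI chain, read 1.66, 2.14 and 1.92 with beta-TCP, against 0.68, 2.73 and 1.90 in control, so that at day 14 it differed by 0.01. Its other 2 probe sets lay at -0.51 and -0.08 on that day. At day 7 its leading probe set was below control (-0.25), and the other 2 were above it (0.67 and 0.76).

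The collagens of epithelial attachment were low. COL7A1, the anchoring fibril collagen under stratified epithelium, read 1.59, 6.36 and 1.65 with beta-TCP, against 1.16, 4.37 and 4.38 in control, or 0.27, 0.45 and -1.02. COL17A1, a hemidesmosome protein below the filter, read 0.17, 0.08 and 0.89 with beta-TCP, against 1.28, 1.22 and 0.29 in control. The 8 measured markers of stratified epithelium summed to 20.1, 50.2 and 27.6 times the median with beta-TCP and to 223, 67.6 and 14.9 in control, so the control day 4 specimen held the most of them. Their part in the collagen values was not tested. Among the membrane-spanning chains, COL25A1 differed by 1.34 at day 4 and COL23A1 by 1.15 at day 14, each from control values under 0.32 times the median. COL26A1, which passed the filter through its control arrays, was below control at day 4 (-0.83) on its leading probe set. That probe set read 0.19 with beta-TCP against 1.12 in control. The second probe set of COL26A1 gave 0.18, 0.49 and -0.63 at days 4, 7 and 14. On the log2(value + 1) scale both probe sets were under 2-fold on every day. The network collagens COL10A1, of hypertrophic cartilage, and COL8A2 were below the filter.

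The next comparison was between days. With beta-TCP, 5 of the 29 collagen genes were at least 2-fold higher at day 7 than at day 4, against 4.86% of all genes, and 0 were lower, against 2.58%. In control holes 10 were higher, against 15.9% of all genes, and 0 lower, against 4.74%. The median difference of the collagen genes, day 7 minus day 4, was 0.47 with beta-TCP and 0.80 in control, and that of all genes was 0.06 with beta-TCP and 0.26 in control. The 10 in control were led by COL4A2 (3.64), COL13A1 (2.48), COL4A1 (2.30) and COL6A1 (2.25). The control day 4 array enters both these values and the day 4 difference from beta-TCP. At day 14 against day 7, beta-TCP had 3 genes at least 2-fold higher (4.82% of all genes) and 6 lower (16.6%), and control had 4 higher (4.2%) and 2 lower (6.29%). Day 14 minus day 7, COL12A1 differed by -1.49 with beta-TCP and by 1.66 in control. COL5A1 differed by -1.01 with beta-TCP and by 1.01 in control, and COL16A1 by -0.92 with beta-TCP and by 1.32 in control.

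Differences between days averaged over both treatments were tested in limma, with day and treatment as additive terms over the 6 arrays and p-values adjusted over all 10550 genes. COL4A2 was higher at day 7 than at day 4 by 2.60 ± 0.48 (SE, adjusted p = 0.0480, limma). It was higher at day 14 than at day 4 by 2.05 ± 0.48 (adjusted p = 0.0374, limma). In every comparison with day 14, the age of the wound and the scale of the file cannot be told apart, and the p-value does not separate them. COL4A2 stood in the same direction in both comparisons, which share the day 4 arrays. On its leading probe set it was higher in both treatments. Its second probe set read 2.70, 10.2 and 0.08 times the median with beta-TCP at days 4, 7 and 14. In control that probe set read 1.43, 11.6 and 2.92, so with beta-TCP alone it was lower at day 14 than at day 4. COL4A2 was the only collagen gene past an adjusted p of 0.05 in either comparison. Of all genes, 0.294% and 1.89% were called there as higher and 0.18% and 3.02% as lower. An unadjusted p under 0.05 was reached by 8 of the 29 collagen genes between days 4 and 7, all higher at day 7, where 8.89% of all genes passed as higher and 3.06% as lower. Between days 4 and 14 it was reached by 10, all higher at day 14, against 12.2% and 10.2% of all genes. COL5A2 (1.54 ± 0.43, adjusted p = 0.0667), COL3A1 (1.35 ± 0.38, adjusted p = 0.0679) and COL16A1 (1.91 ± 0.55, adjusted p = 0.0722) missed the threshold between days 4 and 14 in limma. Between days 7 and 14 no collagen gene was called by limma, and 2 of 29 had an unadjusted p under 0.05, both higher at day 14, against 2.01% of all genes as higher and 7.72% as lower. The calls of COL4A2 were lost in 5 and 4 of 9 alternative settings, among them a pseudocount of 0.25 and the mean of its probe sets.

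For the effect of beta-TCP averaged across days, limma called 0 of the 29 collagen genes, and 0% of all genes. Of all genes, 1.34% had an unadjusted p under 0.05 as higher and 3.53% as lower. Among the collagens it was reached by 3, COL9A1 (1.19 ± 0.30, SE, adjusted p = 0.368), COL14A1 (0.79 ± 0.33, adjusted p = 0.930) and COL23A1 (0.73 ± 0.32, adjusted p = 0.967), each higher on 3 of 3 days. COL23A1 passed the expression filter through its beta-TCP arrays, since its mean in control was below the filter, so its direction is no support for an effect. COL4A5 and COL26A1 passed through their control arrays, and the other 26 genes passed in both treatments. Differences of the effect between days enter the error of this fit, and genes such as COL12A1 (0.14 ± 0.54) and COL6A1 (-0.27 ± 0.65), which turned at day 14, had the widest errors. Without the day 14 pair of arrays, which leaves 1 residual degree of freedom, COL16A1 (1.36 ± 0.34, adjusted p = 0.0104) and COL12A1 (1.2 ± 0.34, adjusted p = 0.0340) were called by limma as higher, where 1.07% of all genes were called as higher and 1.08% as lower. In that fit without day 14, COL9A1 (1.10 ± 0.34, adjusted p = 0.0657) and COL6A1 (1.02 ± 0.35, adjusted p = 0.109) were not called. Its SE was nearly the same for every collagen gene, 0.34 to 0.35. The SE there reflects a variance that limma shares across genes more than the spread of the gene itself, which limits what these calls show about a gene. Over the alternative settings, the lowest adjusted p of any collagen gene for the average effect ran between 0.0104 and 0.936. The same fit of days 4 and 7 called 8 collagen genes as higher at day 7 (COL13A1, COL16A1, COL4A1, COL4A2, COL5A2, COL6A1, COL7A1 and COL9A1) and 0 as lower, against 7.83% and 2.64% of all genes.

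A list of collagen processing enzymes, chaperones, crosslinking enzymes and receptors had 26 kept genes of 31. At day 4, 6 were at least 2-fold higher with beta-TCP and 0 lower, against 4.51% and 3.09% of all genes, with a median of 0.63 against 0.17. At day 7 the counts were 3 and 0, against 2.96% and 3.43%, with a median of -0.18 against -0.08. At day 14 they were 1 and 9, against 3.48% and 15.4%, with a median of -0.80 against -0.23. FKBP10, a prolyl isomerase chaperone of procollagen, had the highest value at day 4 (1.62) and FKBP14 of the same family at day 7 (1.34). The lowest were P4HA1, a prolyl hydroxylase subunit, at day 4 (-0.78) and PLOD3, a lysyl hydroxylase, at day 7 (-0.68). At day 14 DDR1, a collagen receptor, was highest (1.32), and SERPINH1, the procollagen chaperone, was lowest, with 0.24 times the median with beta-TCP against 19.7 in control. Between days 4 and 14, limma called ADAMTS2, which removes the amino propeptide of procollagen, as higher (2.49 ± 0.50, SE, adjusted p = 0.0183), and PCOLCE, the enhancer of carboxy propeptide removal, likewise (2.10 ± 0.52, adjusted p = 0.0469). P4HA1 was lower at day 14 by 2.16 ± 0.54 (adjusted p = 0.0466, limma). For these 3 genes too, the age of the wound and the scale of the file cannot be told apart. None of the 26 was called for the average effect of beta-TCP (0 at an adjusted p under 0.05).

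Bone markers were present in the specimens, with the 8 measured ones summing to 550.3, 903 and 238 times the median with beta-TCP and to 438, 724 and 221 in control. SPP1, an acidic bone matrix protein also made by macrophages, held most of that sum and differed by -0.15 at day 7 and -0.20 at day 14. Of the 8, 2 were at least 2-fold higher with beta-TCP at day 4, against 4.51% of all genes. At day 7 there were 5 (ALPL, BGLAP, PHEX, MEPE and IBSP), against 2.96%, and at day 14 there were 4, against 3.48%. On the log2(value + 1) scale 0 were 2-fold lower on any day, against 3.09%, 3.43% and 15.4% of all genes. BGLAP read 0.16 with beta-TCP at day 4 against 0.75 in control. The median differences of the 8 were -0.05, 1.86 and 0.84, against 0.17, -0.08 and -0.23 for all genes. IBSP, bone sialoprotein, read 31.9, 251 and 38.7 with beta-TCP, against 4.80, 55.3 and 13.1 in control, and MEPE, an osteocyte gene, read 0.05, 7.64 and 5.52 with beta-TCP and at most 0.15 in control. Neutrophil markers summed to 929, 969 and 104 with beta-TCP and to 1711, 1437 and 299 in control. S100A8 and S100A9 held most of these sums. All 5 measured markers were below control at day 4, and MMP8 alone was above it at day 7 (0.16) and day 14 (0.42). Of 6 skeletal muscle genes, ACTA1 alone passed the filter. The part of these cells in the collagen values was not tested.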

How the data were processed

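Per the labels' protocols, RNA of the biopsies was extracted with a kit for fibrous tissue, and biotin-labelled RNA made from 100 ng was hybridised to an Affymetrix canine array. For days 4 and 7 the authors deposited a signal already divided by the array median, with a floor of 0.01. Their day 14 values, also as deposited, are an intensity with no such division (medians 6.2 with beta-TCP, 12 in control). Both units were read from the values, and no label names the software or algorithm. With 1 array per group, the number of arrays limits the precision.

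Here each array was divided by its median and log2(value + 1) taken, with pandas 2.3.3. The platform annotation gave 1 gene for 29254 of 42860 probe sets. It was matched by gene ID to RefSeq names for 34 of the 36 collagen genes, not for COL10A1 and COL25A1. Left out were 90 pairs of probe sets that share a name up to the ending _at or _a_at (180 probe sets, 0 of them collagen), because 16 of the 16 pairs more than 2 log2 units apart on all day 4 and 7 arrays had the opposite order on both day 14 arrays. Each gene was represented by its probe set of highest mean. Limma 3.58.1 in R 4.3.3 fitted day and treatment (2 residual degrees of freedom, Benjamini-Hochberg, threshold 0.05), and was tested on simulated data. Its p-values measure only the spread between these arrays, with a variance partly shared across genes.

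Values on every array are given for genes with a mean of at least 4 times the median or a 2-fold difference on at least 2 days, and some others chosen after their values were seen. The members, classes, lists and tests were chosen with earlier results of these data known. Among the gene lists, 2 names of 1 gene were counted once. Alternatives were other scalings, pseudocount, filter, probe set choices and leaving out a day.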

Additional observations from a re-analysis of the deposited data

Results flagged for a closer look

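For 3 collagen genes the difference between beta-TCP and control was at least 2-fold in opposite directions on different days. At day 4 the log2 difference was 1.65 for COL6A1, 1.24 for COL12A1 and 1.48 for COL16A1. At day 14 the same genes had -2.85, -1.99 and -1.01. With 1 array per group, the difference between the days was not tested. COL16A1 lost this at day 14 under quantile normalization (-0.52) and scaling to the 90th percentile (-0.58), and its second probe set gave -0.16 at day 4. COL12A1 stayed just under 2-fold at day 4 when scaled to the 90th percentile (0.99). The day 14 values rest on the beta-TCP array that stood apart from the others.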

How the results depend on the processing

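The 10 counts of collagen genes were recomputed in 92 combinations of count and alternative, and 69 stayed within 1.5 times the value reported. Many of these were a count of 0 that stayed 0, as in the limma calls for the average beta-TCP effect and between days 14 and 7. In those 2 comparisons few or no genes of the whole array were called in most settings, so such cases say little about stability. The cause of the changes in the remaining combinations was not tested. With a pseudocount of 0.25, 13 genes passed 2-fold as higher and 2 as lower at day 4, and 0 were called between days 7 and 4 and 0 between days 14 and 4. With no expression filter (36 genes), 1 was at least 2-fold lower at day 7, and 0 and 0 were called in these day comparisons, as when the probe sets of a gene were averaged (0 and 0) and with the array's CfaAffx probe sets alone (24 genes, 0 and 0). Quantile normalization gave 2 calls between days 14 and 4, and scaling to the 90th percentile gave 3, and at day 14 it split the genes past 2-fold into 5 higher and 4 lower, against 2 and 6. The Cfa probe sets, its other name class, taken alone (15 genes) gave 2 genes at least 2-fold higher at day 7, 0 at day 14 and 3 calls between days 14 and 4. In 2 alternatives chosen after seeing the data, leaving out probe sets near the top of the scale gave 0 calls between days 7 and 4, and taking differences relative to the median of all genes gave 1 gene at least 2-fold lower at day 4 and 3 lower at day 14. Without the day 7 pair of arrays, 3 genes were called between days 14 and 4. Without the day 14 pair, 2 were called for the average beta-TCP effect and 8 between days 7 and 4. The limma fit already compares beta-TCP with control within days, since day is a term in it. No paired analysis was possible because the labels carry no replicate numbers that could tie arrays by animal, and each group holds 1 array. Genes near or below the array median have no detection call here, so their differences are the least certain.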
